A study of Mus musculus with 24 samples.

Results

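The genes described here are 9 members of the transforming growth factor beta (TGF-beta) pathway, the ligand gene Tgfb1, the receptor genes Tgfbr1 and Tgfbr2, the SMAD genes Smad2, Smad3, Smad4 and Smad7, and the SMAD repressor genes Ski and Skil. They were picked by gene name, and each matched 1 of the 45237 genes listed in the deposited count table. All 9 passed the filter on low counts, which left 17097 genes for testing. RNA-seq counts came from 24 libraries of natural killer (NK) cells, sorted by flow cytometry from mouse spleen as cells that carried NKp46 or NK1.1 and lacked lineage markers that included CD3, CD5 and the T cell receptors. Total counts ran from 5138651 to 14863500 per library, with a median of 10489204.

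The mice were wild-type (WT) C57BL/6J, and by the methods they were females 7 to 9 weeks old unless specified otherwise. The 4 Control libraries came from mice without tumor cells. RMA cells, a mouse T cell lymphoma line that carries ZsGreen, were injected intravenously, and NK cells were taken at day 2 (RMA early, 3 libraries), day 4 (RMA intermediate, 3 libraries) and day 9 (RMA late, 3 libraries). RMA-KR cells derive from RMA, lack B2m and with it MHC-I on the surface, and carry Rae1-β, a ligand of the activating receptor NKG2D, together with ZsGreen. The line was cloned by limiting dilution, so what is measured with it may be specific to that clone. NK cells from mice with RMA-KR were taken at day 2 (RMA-KR early, 3 libraries), day 7 (RMA-KR intermediate, 5 libraries) and day 14 (RMA-KR late, 3 libraries). The tumor and the day differ together at the intermediate and late stages, so they cannot be told apart there. The labels do not say that each library is a mouse of its own, although the study counts its late and control RNA-seq samples as mice. It gives 3 mice per group for these, while 4 Control libraries are used here. The p-values here measure the spread between the libraries.

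TGF-beta is made as a latent precursor, and once released it binds TGFBR2, which recruits and phosphorylates TGFBR1. TGFBR1 then phosphorylates SMAD2 and SMAD3, which join SMAD4 and act on transcription in the nucleus. SMAD7 blocks the receptor, SKI and SKIL hold back SMAD-driven transcription, and in NK cells the pathway is known to restrain cytotoxicity, interferon-γ production and growth.

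Some libraries stood apart from their groups. The summed level of the immediate early genes Fos, Jun, Junb and Dusp1, chosen after their values were seen, was 802 to 909 normalized CPM (each library's counts scaled to the same total, with TMM factors) in Control 4 and RMA-KR intermediate 3, 4 and 5, and 3008 to 7499 in the other 20 libraries. RMA early 1 and 2 and RMA-KR late 3 had 466 to 627 genes at under 0.2 times the gene's median, among 8373 genes with a mean of at least 10 normalized CPM, against 10 to 236 in the other 21 libraries. Values without these libraries, as alternatives chosen after seeing the data, stand beside many of the results that moved. Pairs of libraries of a group differed by far more than sampling noise, with a chi-square per degree of freedom of 17.9 to 95.2 over 31 pairs.

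Per kilobase of exon, Smad3 was the most abundant member and Tgfb1 the least abundant. Smad3, a receptor-activated SMAD, averaged 70.1 ± 17.8 normalized CPM per kb (SD over 24 libraries). Tgfbr2, the ligand-binding receptor, averaged 26.9 ± 6.09 and lay below Smad3 in 24 of 24 libraries and above Smad2 in 24. Smad2 averaged 11.8 ± 3.12 normalized CPM per kb and exceeded Skil, at 9.23 ± 3.07, in 20 libraries. Skil in turn exceeded Smad4 in 19 libraries. Smad4 at 6.59 ± 3.82, Tgfbr1 at 6.15 ± 2.66 and Ski at 5.14 ± 2.64 normalized CPM per kb were within their spread of each other: Smad4 was above Tgfbr1 in 11 libraries and Tgfbr1 above Ski in 15. Smad7 averaged 2.47 ± 1.21 and lay below Ski in 22 libraries, and Tgfb1 averaged 1.86 ± 1.24 and lay below Smad7 in 18. None of the 9 genes shares exon bases with another annotated gene.

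**Figure D1:**
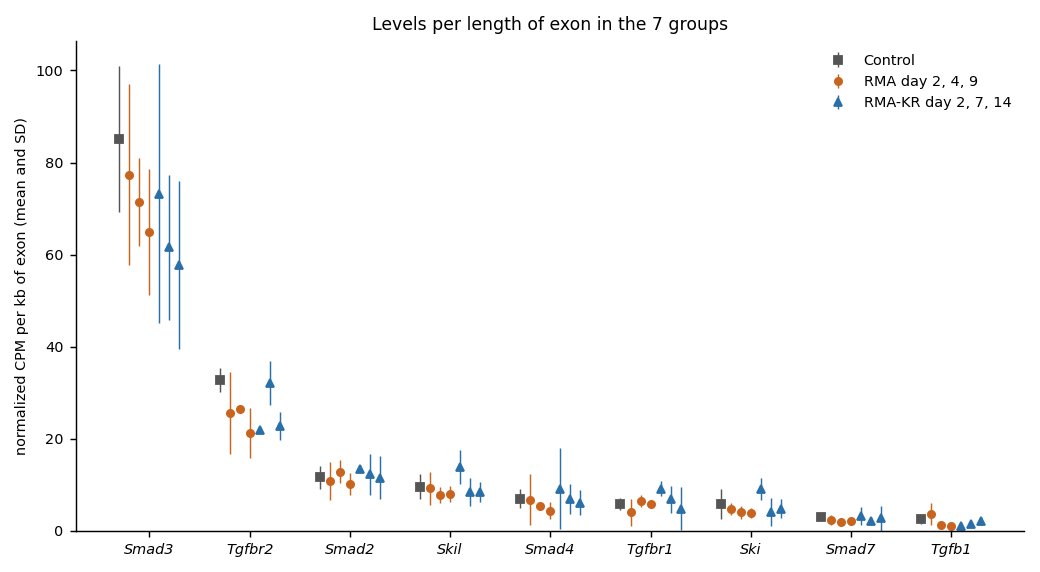
Mean level of each member per kilobase of union exon length (normalized CPM per kb) in the 7 groups, with bars of 1 SD over libraries. Squares in grey stand for Control, circles in orange for RMA at days 2, 4 and 9 and triangles in blue for RMA-KR at days 2, 7 and 14, from left to right, and Smad3 and Tgfbr2 lie above the other members in each group.

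No member passed an adjusted p of 0.05 by edgeR in any of the 6 comparisons with Control, which share the 4 Control libraries. In RMA early, 0 of 9 members passed (0% of all genes tested), 0 had an unadjusted p under 0.05 (7.04% of genes), and 0 had every library above or every library below all Control libraries (7.05% of genes). In RMA intermediate, 0 members passed (2.35% of genes) and 0 had an unadjusted p under 0.05 (15.9%), while Tgfb1, Tgfbr2 and Smad7, or 3 of 9, were below every Control library (20.7% of genes lay wholly above or wholly below Control). RMA late had 0 members past the threshold (2.66%), 1 at an unadjusted p under 0.05 (14%) and 1 without overlap (18%), in both cases Tgfbr2. With RMA-KR early the counts were 0 (0.0994%), 1 at an unadjusted p under 0.05 (8.71%) and 1 without overlap (10.5%), again Tgfbr2. RMA-KR intermediate gave 0 (0.0175%), 0 at an unadjusted p under 0.05 (5.91%) and 0 without overlap (2.63%). For RMA-KR late, 0 members passed (1.22%), and Tgfbr2 was the 1 member at an unadjusted p under 0.05 (14.2%) and the 1 without overlap (13.6%). Counts of 0 or 1 among 9 genes lie close to these shares of all genes and say nothing particular of the members, and the 3 in RMA intermediate are few genes to set beside 20.7%. DESeq2, with default settings and with betaPrior, passed 1 member in RMA late against Control, Tgfbr2, and 0 in the other 5 comparisons with Control. Over all genes in RMA late, DESeq2 passed 683 upward and 371 downward with default settings, and 666 and 324 with betaPrior.

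Comparisons between tumor groups also gave 0 members by edgeR. The share of all genes without overlap is not given for these comparisons, so a member without overlap there is only described. Against RMA early, RMA-KR early had 0 members past the threshold (0.339% of genes) and 1, Tgfb1, at an unadjusted p under 0.05 (12.3%). For RMA-KR intermediate against RMA intermediate the counts were 0 (0.643%) and 0 (14.2%), and for RMA-KR late against RMA late 0 (0%) and 0 (7.31%). RMA late against RMA early gave 0 (2.87%) and 1, Tgfb1, at an unadjusted p under 0.05 (17.2%), and RMA-KR late against RMA-KR early gave 0 (0.392%) and 0 (15%). DESeq2 with either setting passed Tgfb1 in RMA late against RMA early and 0 members in the other 4 of these comparisons. Over all genes in RMA late against RMA early, DESeq2 passed 757 upward and 605 downward with default settings, and 660 and 557 with betaPrior. The members' median log2 fold change was −0.43 in RMA late and −0.26 in RMA-KR late against Control, beside −0.18 and −0.18 over all tested genes. All 9 members had a log2 fold change below 0 in both, beside 59% and 58.8% of all genes. Tgfbr1 in RMA late and Smad2 in RMA-KR late lay close to 0, however, and changed sign under some alternatives. So did Tgfbr1, Smad4 and Smad7 in RMA-KR late without the libraries with many genes far below. In RMA-KR early the members' median was 0.22, beside 0.00 for all genes, with 6 members higher and 3 lower. Fitting only the libraries of the groups compared moved the all-gene median from −0.29 to −0.06 in RMA intermediate against Control. In such fits the all-gene median was −0.04 in RMA late and −0.03 in RMA-KR late against Control. Over genes that reached 10 counts in each library it was −0.05 and −0.01. The members' medians under these settings are not given here. In RMA late against RMA early, edgeR passed 372 genes upward and 119 downward, and 295 and 168 with DESeq2's size factors.

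**Figure D2:**
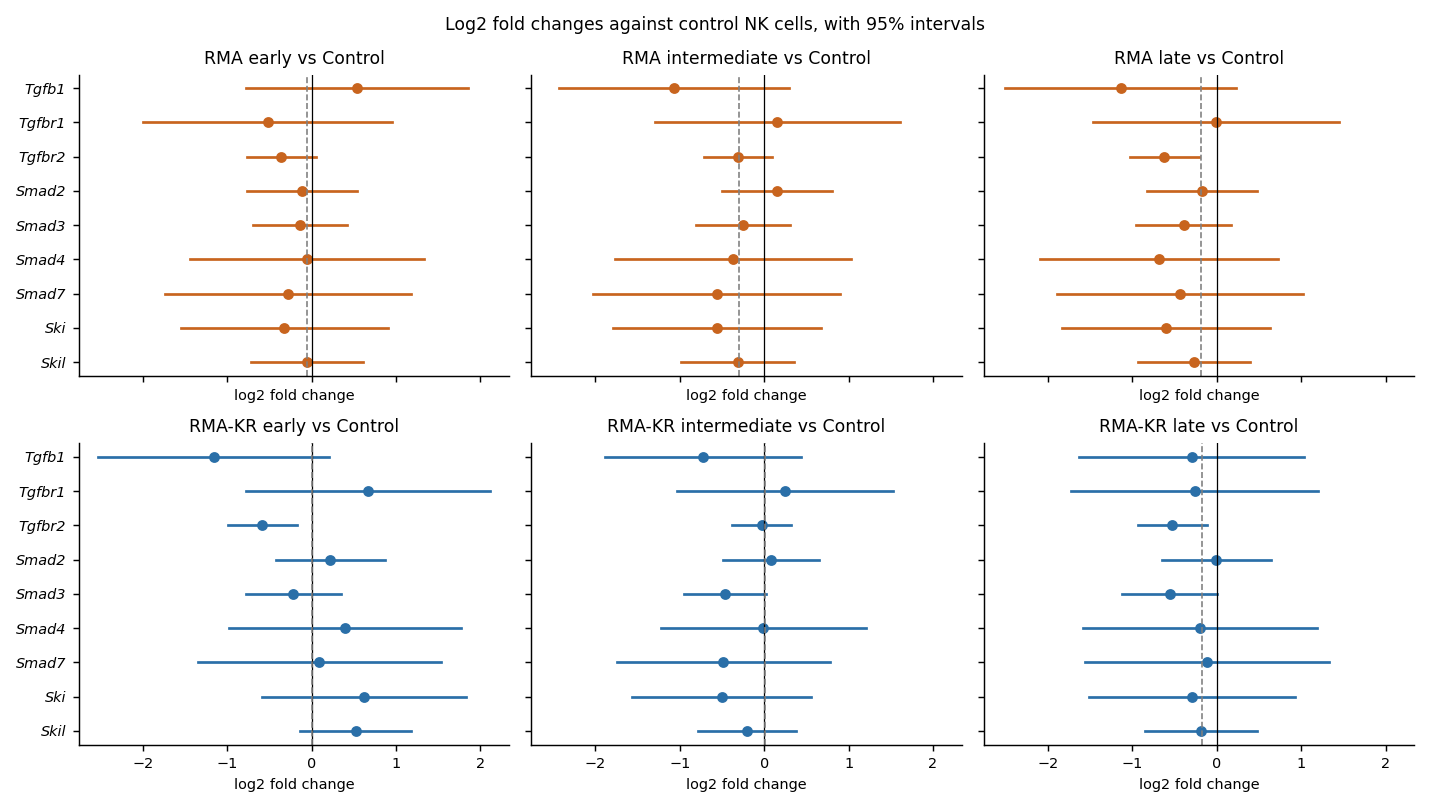
Log2 fold change of each member (points) with its 95% interval (lines) in the 6 comparisons with Control, RMA in orange and RMA-KR in blue. The dashed line is the median of all genes tested and the solid line marks no difference. The interval of Tgfbr2 lies below 0 in RMA late, RMA-KR early and RMA-KR late.

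Tgfb1, which encodes the TGF-beta1 precursor and lies at chr7:25687002-25705077 (mm10, plus strand), was the member with the lowest level per length. Control libraries 1 to 4 had 18.1, 13.9, 10.7 and 7.32 normalized CPM. The values were 6.00, 30.0 and 18.5 in RMA early, and 5.38, 6.87 and 5.62 in RMA intermediate. RMA early 2, one of the libraries with many genes far below their median, held the highest Tgfb1 level of all 24, and the RMA intermediate libraries lay just under the lowest Control library. RMA late gave 5.42, 2.05 and 9.56, RMA-KR early 5.47, 2.68 and 8.61, and RMA-KR late 7.21, 8.08 and 15.2. RMA-KR intermediate had 6.80, 12.5, 2.98, 7.73 and 7.76. These groups overlapped with Control, whose own libraries spanned a wide range. In RMA late, the log2 fold change against Control was −1.14 (95% interval −2.51 to 0.23), with an edgeR adjusted p of 0.454. Without RMA late 2, the lowest library, Tgfb1 was at −0.72 (edgeR adjusted p = 0.821).

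The day 2 groups differed in Tgfb1 by a log2 fold change of −1.70 for RMA-KR early against RMA early (95% interval −3.16 to −0.24, edgeR adjusted p = 0.351). Without RMA early 2 it was −1.13 (edgeR adjusted p = 0.585). RMA late against RMA early gave −1.68 (95% interval −3.14 to −0.22, edgeR adjusted p = 0.224), and −1.11 without RMA early 2 (edgeR adjusted p = 0.503). This difference passed with DESeq2 (adjusted p = 0.0468, and 0.0479 with betaPrior), and its adjusted p reached 0.670 over the other alternatives. In both comparisons the groups overlapped, since RMA early 1, at 6.00, lay among the lower values. The summed level of the platelet markers Pf4, Ppbp, Itga2b, Gp9 and Gp1bb was 8.81, 30.4 and 20.1 normalized CPM in RMA early 1 to 3, and 15.2, 18.2 and 16.7 in RMA-KR early, where Tgfb1 was low. It was 7.14, 5.86 and 12.4 in RMA late, where Tgfb1 was low as well, and 1.85, 3.38, 2.63 and 1.96 in Control. The part of platelet RNA in the Tgfb1 level was not tested. Bulk counts do not separate fewer cells that express a gene from less RNA per cell.

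Tgfbr1, the type I receptor kinase at chr4:47353222-47414931 (mm10, plus strand), varied more between libraries than between groups. Control libraries had 32.5, 34.3, 33.4 and 50.4 normalized CPM, RMA early 4.27, 36.2 and 38.2, and RMA-KR early 72.2, 57.3 and 50.2. RMA intermediate gave 51.3, 40.02 and 34.7, and RMA late 42.4, 35.5 and 34.2. RMA-KR intermediate had 22.9, 25.9, 60.9, 49.3 and 64.4, and RMA-KR late 62.9, 30.5 and 0.867, the last from 9 counts. RMA early 1 and RMA-KR late 3, the very low values, were libraries with many genes far below their median. Control 4 and RMA-KR intermediate 3, 4 and 5, which were low in immediate early genes, had a median Tgfbr1 level of 55.6 against 35.1 in the other libraries.

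Tgfbr1 followed those libraries in its fold changes. RMA-KR intermediate against Control gave a log2 fold change of 0.24 (95% interval −1.04 to 1.53, edgeR adjusted p = 0.999), which turned to −0.44 without the libraries low in immediate early genes. RMA-KR late against Control gave −0.26 (95% interval −1.72 to 1.20, edgeR adjusted p = 0.921), and 0.35 without the libraries with many genes far below. RMA early against Control moved in the same way from −0.52 to 0.04, with RMA early 3 as the only library left in its group, whose spread is then assumed to be like that of the others. In RMA-KR early every library exceeded those of RMA early, by 1.19 on the log2 scale (95% interval −0.39 to 2.77, edgeR adjusted p = 0.540), and by 0.67 without RMA early 1. The part of either kind of library difference in Tgfbr1 was not tested further.

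Tgfbr2, the type II receptor that binds the ligand, was the member closest to the threshold. It lies at chr9:116084293-116175360 (mm10, minus strand). The 250 bases before its start are shown because the results turn on this gene (RefSeq, GRCm38.p6, chr9:116175364-116175613, minus strand, 5′ to 3′), with capitals for the letters CAGAC of the SMAD binding element.
Tgfbr2: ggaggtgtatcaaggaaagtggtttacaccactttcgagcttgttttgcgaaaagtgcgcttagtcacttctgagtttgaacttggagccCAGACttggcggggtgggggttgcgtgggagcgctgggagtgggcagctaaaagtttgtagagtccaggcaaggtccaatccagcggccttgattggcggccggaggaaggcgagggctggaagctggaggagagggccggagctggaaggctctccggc
CAGAC was searched on both strands, as CAGAC or GTCTG, and the 1 match begins 160 bases before the start. Of 32841 windows of 250 bases before gene starts, 42.2% held at least 1 match. RefSeq windows are given here for 5 of the 9 members only, and those of Tgfb1, Smad3 and Ski held no match. Of the windows of Tgfbr1, the one at the gene's annotated start held 0 and the other 1. Windows of the remaining members are not part of these results, so nothing is said of their matches. A match describes the letters and says nothing of binding.

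Control libraries had 290.0, 273, 238 and 273 normalized CPM of Tgfbr2. RMA late gave 135, 165 and 223, RMA-KR early 176, 179 and 182, and RMA-KR late 172, 216 and 171. Each of these groups lay below all 4 Control libraries, though RMA late 3 came close to Control 3. The log2 fold change in RMA late was −0.62 ± 0.20 (SE; 95% interval −1.03 to −0.22; edgeR adjusted p = 0.104). RMA-KR early gave −0.58 ± 0.20 (SE; 95% interval −0.99 to −0.18; edgeR adjusted p = 0.385). RMA-KR late gave −0.53 ± 0.20 (SE; 95% interval −0.93 to −0.12; edgeR adjusted p = 0.256). These differences in Tgfbr2 did not pass after adjustment over all genes by edgeR.

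The call in RMA late depended on the tool and on single libraries. DESeq2 gave Tgfbr2 an adjusted p of 0.0308 (0.0317 with betaPrior), and edgeR on genes that reached 10 counts in each library an adjusted p of 0.0454. Without RMA late 3 the log2 fold change was −0.80 with an edgeR adjusted p of 0.0452, and without RMA late 1 it was −0.44 with 0.646. Over the alternatives that left out no single library the adjusted p of Tgfbr2 ran from 0.0308 to 0.437. Without the libraries low in immediate early genes the log2 fold change of Tgfbr2 in RMA late was −0.61 (edgeR adjusted p = 0.259), and without the libraries with many genes far below it was −0.59 (edgeR adjusted p = 0.0894).

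The other groups held Tgfbr2 nearer to Control. RMA early had 141, 285 and 202 normalized CPM and overlapped with Control, with a log2 fold change of −0.36 (95% interval −0.76 to 0.05, edgeR adjusted p = 0.712). Tgfbr2 in RMA early came to −0.12 without RMA early 1 (edgeR adjusted p = 0.923) and to −0.63 without RMA early 2 (0.824), both of them libraries with many genes far below, and to −0.39 without all such libraries. RMA intermediate had 214, 216 and 218, all below Control, with −0.31 (95% interval −0.72 to 0.09, edgeR adjusted p = 0.417). RMA-KR intermediate had 304, 219, 244, 239.6 and 306, spanning the Control range, with −0.03 (95% interval −0.38 to 0.32, edgeR adjusted p = 0.999). Every RMA-KR intermediate library exceeded the RMA intermediate libraries in Tgfbr2, by 0.28 on the log2 scale (95% interval −0.11 to 0.67, edgeR adjusted p = 0.490). RMA-KR late and RMA-KR early differed by 0.06 (95% interval −0.37 to 0.49), and by 0.16 without the libraries with many genes far below.

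**Figure D3:**
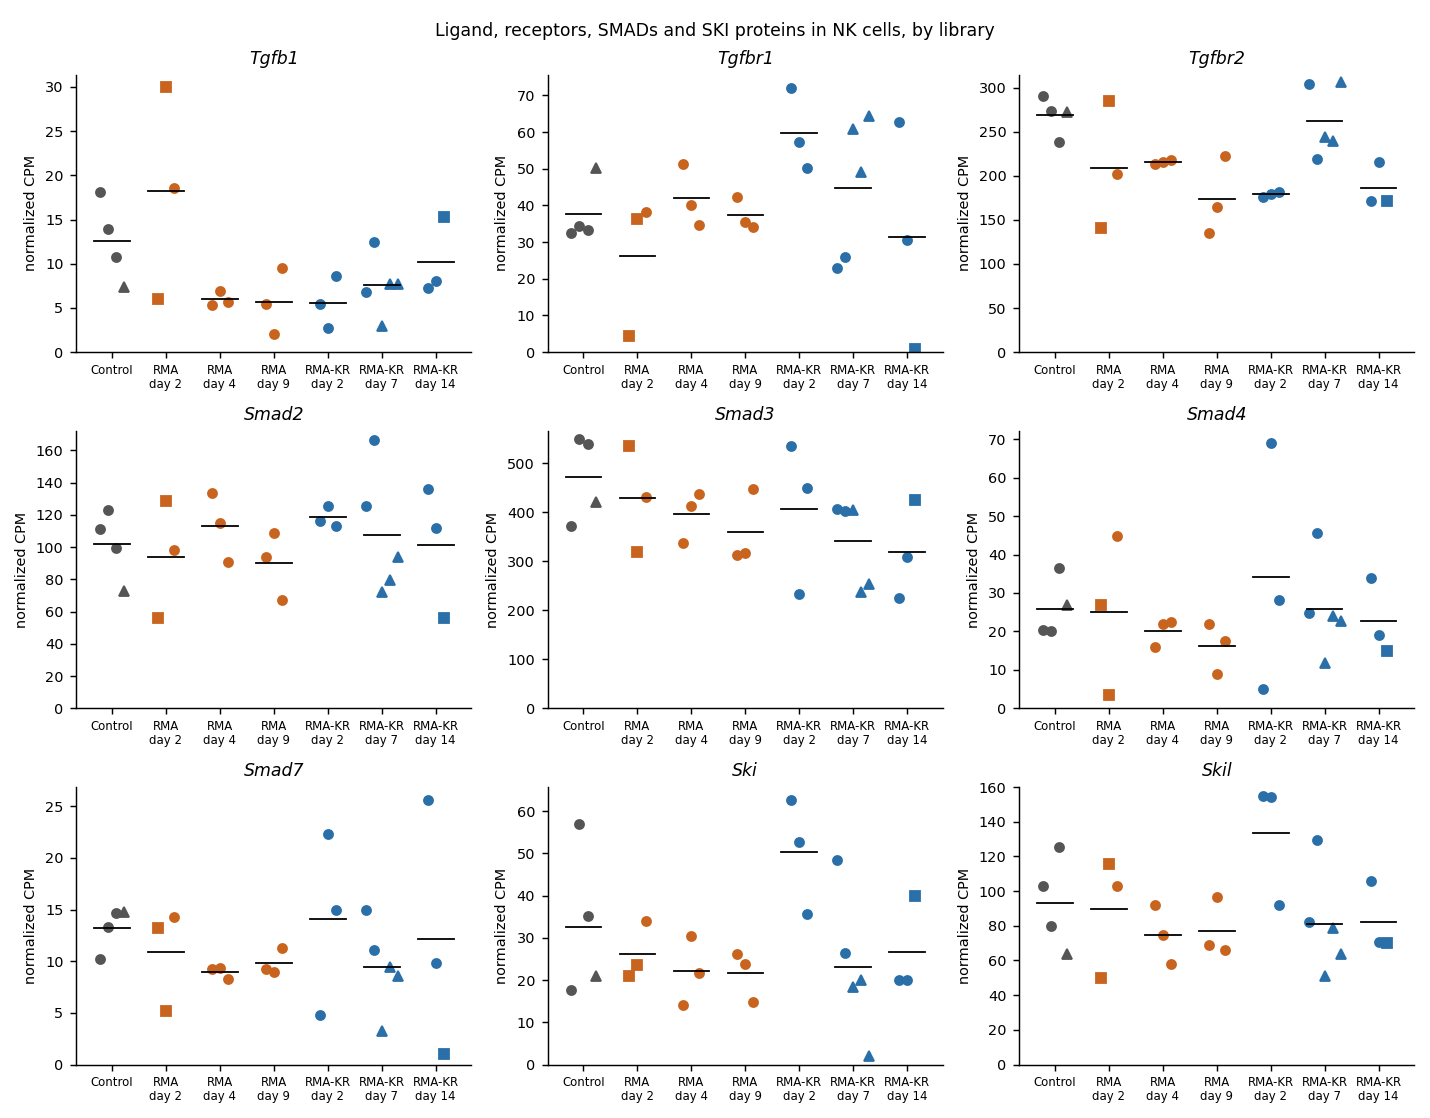
Normalized CPM of each member in every library, by group and day, with Control in grey, RMA in orange and RMA-KR in blue and a black bar at the group mean. Triangles mark libraries low in immediate early genes, squares libraries with many genes far below their median, and circles the others. The Tgfbr2 values of RMA late, RMA-KR early and RMA-KR late lie below the 4 Control libraries.

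Smad2 encodes a receptor-activated SMAD and varied little between groups. Its group means ran from 89.8 ± 21.1 normalized CPM (SD) in RMA late to 118 ± 6.45 in RMA-KR early, beside 102 ± 21.6 in Control. The lowest library was RMA-KR late 3 at 56.0 and the highest RMA-KR intermediate 2 at 166.6, so the range within RMA-KR groups covered that of all groups. Against Control, the log2 fold changes of Smad2 ran from −0.18 to 0.22, with 3 of 6 below 0 and edgeR adjusted p values from 0.864 to 1. The libraries low in immediate early genes had a median Smad2 level of 76.3, against 112.6 in the others.

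Smad3, the partner of Smad2 downstream of the receptor, lies at chr9:63646767-63757994 (mm10, minus strand). Control libraries had 373, 550.1, 540.2 and 422 normalized CPM. RMA-KR late gave 225, 308 and 426, and RMA-KR intermediate 407, 402, 405, 238 and 255. Each group overlapped with Control, through RMA-KR late 3 in one and RMA-KR intermediate 1, 2 and 3 in the other. RMA late had 314, 317 and 447, and RMA intermediate 337, 414 and 438. RMA early had 536, 319 and 432, and RMA-KR early 536, 233 and 449. The mean of Smad3 was below Control in all 6 tumor groups, which share those Control libraries, with log2 fold changes from −0.56 to −0.14.

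The interval for Smad3 reached past 0 in each of them. RMA-KR late gave −0.56 ± 0.27 (SE; 95% interval −1.12 to 0.00; edgeR adjusted p = 0.353), and RMA-KR intermediate −0.47 ± 0.24 (SE; 95% interval −0.95 to 0.02; edgeR adjusted p = 0.873). Without the libraries with many genes far below, Smad3 in RMA-KR late was at −0.78 (edgeR adjusted p = 0.362), and without RMA-KR late 1, the lowest library, at −0.37 (edgeR adjusted p = 0.542). Without the libraries low in immediate early genes, Smad3 in RMA-KR intermediate was at −0.25 (edgeR adjusted p = 0.925). RMA-KR intermediate 4 and 5, the low values of that group, were among the libraries low in immediate early genes.

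Smad4, the common partner that joins the activated SMADs, was scattered within groups. Its levels spanned 3.40 normalized CPM in RMA early 2 to 68.9 in RMA-KR early 2, and the 3 RMA-KR early libraries alone had 5.01, 68.9 and 28.3. Control libraries had 20.3, 20.2, 36.6 and 26.8, inside that range. The log2 fold changes of Smad4 against Control ran from −0.69 in RMA late to 0.39 in RMA-KR early, with edgeR adjusted p values from 0.747 to 1.00. The 95% interval in RMA late, −2.10 to 0.72, allows differences in either direction. In RMA early the log2 fold change of −0.05 turned to 0.01 with DESeq2's size factors, and to 0.80 without the libraries with many genes far below.

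Smad7, the inhibitory SMAD, was below every Control library in RMA intermediate. Control libraries had 10.2, 13.3, 14.6 and 14.7 normalized CPM, and RMA intermediate 9.26, 9.32 and 8.25. The gap between the groups was narrow, and the log2 fold change was −0.56 (95% interval −2.03 to 0.90, edgeR adjusted p = 0.749). RMA late had 9.20, 8.93 and 11.2, and RMA-KR late 25.6, 9.84 and 1.06, the last from 11 counts in a library with many genes far below. That group thus held both the highest and the lowest Smad7 level of the 24 libraries. RMA-KR late against Control gave a log2 fold change of −0.12 (95% interval −1.56 to 1.33, edgeR adjusted p = 0.968) for Smad7, and 0.46 without those libraries.

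Ski, a repressor of SMAD-driven transcription at chr4:155154075-155222592 (mm10, minus strand), was higher in all RMA-KR early libraries than in RMA early. RMA-KR early had 62.7, 52.7 and 35.7 normalized CPM, and RMA early 21.0, 23.6 and 34.0. RMA-KR early 3 lay just above RMA early 3, and Control, at 17.7, 57.0, 35.1 and 20.9, overlapped with both groups, with RMA-KR early 1 above all Control libraries. The log2 fold change of Ski between the day 2 groups was 0.94 (95% interval −0.37 to 2.26, edgeR adjusted p = 0.563), and 0.55 without the libraries with many genes far below (edgeR adjusted p = 0.970), which leaves RMA early 3 alone in its group. In RMA-KR intermediate the Ski values were 48.3, 26.5, 18.4, 19.9 and 2.06, lower in the 3 libraries low in immediate early genes. The log2 fold change of Ski against Control was −0.51 there (edgeR adjusted p = 0.999), and 0.05 without those libraries.

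In the plot of Tgfbr1, Ski and Tgfbr2 against the immediate early genes, the 4 libraries low in those genes form a group at the left edge. Their Ski levels, 2.06 to 20.9, had a median of 19.1 normalized CPM against 26.3 in the other 20 libraries, while their Tgfbr2 levels, 239.6 to 306, had a median of 258.5 against 214.7. All 4 libraries belong to Control and RMA-KR intermediate, the groups with the highest means of Tgfbr2. Tgfbr2 was at 290, 273 and 238 in Control 1 to 3, and at 304 and 219 in RMA-KR intermediate 1 and 2. The 4 libraries thus overlapped in Tgfbr2 with the others of their own groups.

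**Figure D4:**
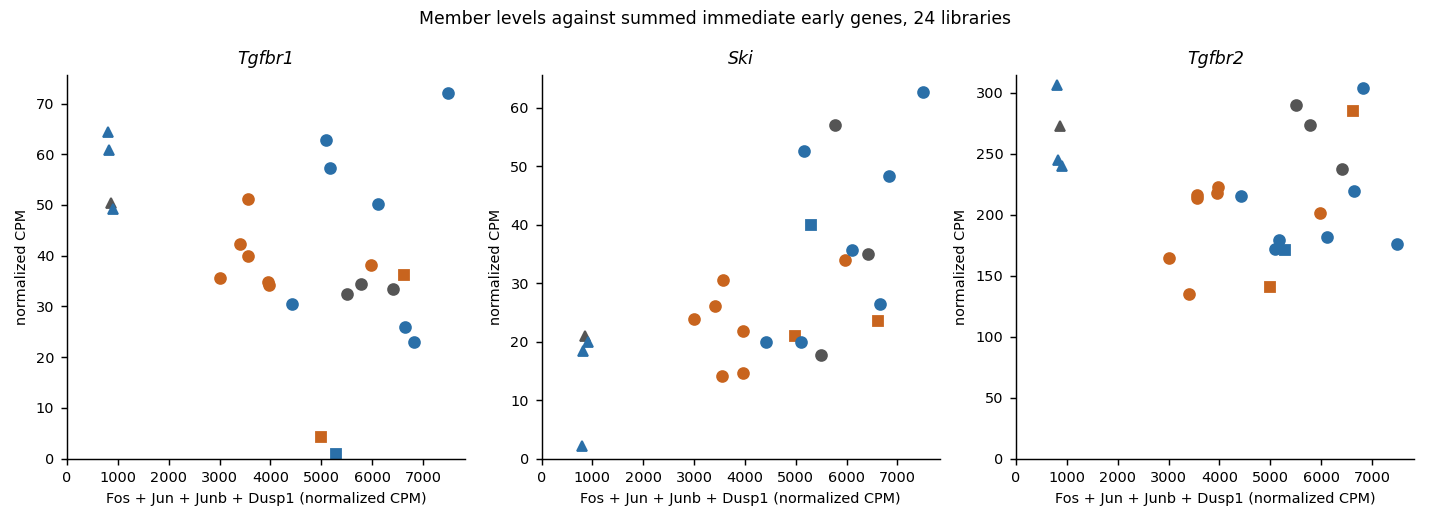
Level of Tgfbr1, Ski and Tgfbr2 (vertical axes, normalized CPM) against the summed level of Fos, Jun, Junb and Dusp1 (horizontal axes, normalized CPM) in 24 libraries, with Control in grey, RMA in orange and RMA-KR in blue. Triangles mark the 4 libraries at 802 to 909 on the horizontal axis, squares the 3 libraries with many genes far below their median, and circles the other libraries.

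Skil, the close relative of Ski at chr3:31095058-31122577 (mm10, plus strand), had its highest group mean in RMA-KR early. The values were 154.8, 154.5 and 91.9 normalized CPM in RMA-KR early, and 105.6, 70.4 and 69.9 in RMA-KR late. RMA-KR late 1 lay above RMA-KR early 3, so the groups overlapped by that pair. RMA-KR late against RMA-KR early gave a log2 fold change of −0.71 ± 0.34 (SE; 95% interval −1.42 to 0.00; edgeR adjusted p = 0.335) for Skil. Control libraries had 103, 80.0, 125.7 and 63.8, with values that reached into both groups. Against Control, Skil ran from −0.31 in RMA intermediate to 0.52 in RMA-KR early on the log2 scale, with edgeR adjusted p values from 0.672 to 0.999.

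Genes whose levels followed a member over the 24 libraries were sought among genes with a mean of at least 10 normalized CPM, as a description of libraries that share groups and handling. For Tgfbr2 they were Ptk2b (Pearson r = 0.855), Camta2 (0.774) and Slc41a1 (0.748), and over the 21 libraries without many genes far below r was 0.865, 0.704 and 0.780. For Tgfb1 they were Ercc4 (r = 0.746), Pcm1 (0.720) and Maged2 (0.715), with 0.715, 0.723 and 0.583 over the 21 libraries. Tgfbr1 was followed by Ahcyl1 (r = 0.923), Dph7 (0.907) and Mmab (0.893), which came to 0.395, −0.178 and 0.508 over the 21 libraries. These therefore rested on the libraries left out together. Tgfbr1 was very low in RMA early 1 and RMA-KR late 3 of them, and at 36.2 normalized CPM in RMA early 2. Smad7 was followed by Zfp382 (r = 0.772), Ubox5 (0.768) and Mrpl1 (0.760), with 0.554, 0.420 and 0.424 over the 21 libraries.

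Around the 9 members, 6 lists of other pathway genes held 78 gene names, of which 66 were tested. Over the 11 comparisons, 0 of their 726 gene and comparison pairs passed by edgeR (0.962% over all tested genes), 82 had an unadjusted p under 0.05 (11.3%, beside 11.98% over all genes), and DESeq2 with default settings passed 7 (0.964%, beside 3.11%), which fell to 2 with betaPrior, while the count over all genes went from 5857 to 5001 of 188067 pairs. The other receptors held 4 of the 7 and 0 of the 2. Of 12 genes for activation of the latent ligand, 2 were higher than Control in RMA late and 4 in RMA-KR late, with median log2 fold changes of −0.73 and −0.68, and Itgb1, an integrin subunit, was the most abundant at 1364 normalized CPM. Tgfb2, Itgb8 and Lrrc32 of that list averaged only 0.374 to 0.438. Of 10 other receptors of the superfamily, 1 was higher in RMA late and 1 in RMA-KR late, with medians of −0.89 and −2.07. Acvr1, Acvr1c, Eng, Bmpr1a and Vasn of these receptors averaged 0.423 to 1.04 normalized CPM, and the second median lies between Acvr1 and Vasn, with 99 and 228 counts in total over the 24 libraries, so it rests on few counts. The most abundant of these receptors, Bambi, a decoy receptor, averaged only 25.0 normalized CPM, and was at 6.07 in Control 4 and 3.79 to 6.28 in RMA-KR intermediate 3, 4 and 5. Of 21 SMAD family members and regulators, 7 and 6 were higher, with medians of −0.35 and −0.21, and Strap, which binds the receptors, averaged 206 normalized CPM.

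The remaining lists had medians on both sides of 0. Of 7 partners of SKI and SKIL, 4 were higher than Control in RMA late and 5 in RMA-KR late, with medians of 0.20 and 0.28, and the corepressor gene Ncor1 averaged 175 normalized CPM. Of 8 genes of SMAD-independent kinase signaling, 4 and 5 were higher, with medians of 0.08 and 0.12, and Map2k3 averaged 177. Of 12 general TGF-beta response genes, 5 and 5 were higher, with medians of −0.34 and −0.05, beside −0.18 and −0.18 for all genes. Junb, an immediate early gene as well, was the most abundant of them at 1873 normalized CPM.

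The earlier groups gave other medians. Over the 6 comparisons with Control, the median of all genes ran from −0.29 in RMA intermediate to 0.01 in RMA-KR intermediate. The genes for activation of the latent ligand ran from −0.73 in RMA late to 0.21 in RMA-KR early, and the SMAD family members and regulators from −0.35 in RMA late to 0.26 in RMA-KR early, where 8 of 12 and 16 of 21 were higher. General response genes ran from −0.36 in RMA intermediate to 0.45 in RMA-KR early, with 10 of 12 higher in the latter. Id1, Pmepa1, Col1a1, Tgfbi and Id3 of that list averaged only 0.283 to 2.82 normalized CPM. Tgif1, Pmepa1, Ldlrad4 and Smurf1 stand in both this list and that of the SMAD family and regulators, so the lists are not separate. The other receptors, 5 of them with few counts, ran from −2.07 in RMA-KR late to −0.15 in RMA-KR early. In RMA-KR intermediate 10 of 10 were higher than in RMA intermediate, where 37.2% of all genes were lower. Their median was 1.65, next to Acvr1 at 1.67 with 99 counts in total, beside 0.23 for all genes. That all-gene median was 0.065 when only these groups were fitted, and 0.00 without the libraries low in immediate early genes. Medians of the partners of SKI and SKIL lay between −0.08 in RMA early and 0.28 in RMA-KR late, and those of the kinase genes between −0.18 in RMA early and 0.205 in RMA intermediate.

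Of 10 genes known to be raised by TGF-beta in NK cells, 0 passed by edgeR in the 11 comparisons, 11 of 110 pairs had an unadjusted p under 0.05 (10%, beside 11.98% over all genes), and DESeq2 with default settings passed 2 (1.82%, beside 3.11%), Nt5e and Ctla4, named here after their values were seen, both in RMA-KR late against RMA-KR early, and 1 with betaPrior. Rgs1, a regulator of G protein signaling, was the most abundant at 1059 normalized CPM, and was at 275, 307, 323 and 331 in Control 4 and RMA-KR intermediate 3, 4 and 5, against at least 778 in the other libraries. The list had 5 genes higher than Control in RMA late and 5 in RMA-KR late, with medians of 0.00 and 0.46. In RMA-KR early 3 of the 10 were higher than Control, with a median of −0.86, and 3 were higher than in RMA early, also with a median of −0.86, beside 0.00 and 0.03 for all genes. In RMA-KR late against RMA-KR early 7 were higher, with a median of 0.83. Cd101, Ctla4, Itgae, Itga1 and Cxcr6 averaged only 1.26 to 10.3 normalized CPM, so part of the list behind these medians was at low levels. Itga1, Tnfsf10 and Cxcr6 of this list also stand in the list of ILC1 markers given below. Of those 4 markers, 0 were higher in RMA-KR early than in Control and 2 than in RMA early, with medians of −1.18 and −0.41. Over the 6 comparisons with Control the median of the list ran from −0.86 in RMA-KR early to 0.46 in RMA-KR late.

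Of 10 genes known to be lowered by TGF-beta in NK cells, 4 passed by edgeR in at least 1 comparison, Gzmb, Eomes, Klf2 and Cd226, in 8 of 110 pairs (7.27%, beside 0.962% over all genes); 2 of the 8 were upward and 6 downward. At an unadjusted p under 0.05 there were 32 of 110 pairs (29.1%, beside 11.98%). DESeq2 passed 15 pairs with default settings (13.6%, beside 3.11%) and 15 with betaPrior. The 8 pairs come from those 4 genes, in comparisons that share groups. Genes of the list averaged 87.3 to 4415 normalized CPM, while 8373 of the 17097 tested genes averaged at least 10. The NK marker list, which shares Gzmb, Eomes and Prf1 among others, had 4.55% of pairs past edgeR and 26.4% at an unadjusted p under 0.05. These shares are therefore not particular to genes lowered by TGF-beta. The list had 3 genes higher than Control in RMA late and 3 in RMA-KR late, with medians of −0.26 and −0.22, and its most abundant gene was Prf1, which encodes perforin, at 4415 normalized CPM. Gzmb, the gene of the cytotoxic protease granzyme B, went against the name of the list. Control libraries had 990.1, 1569, 2887 and 811 normalized CPM of Gzmb, RMA intermediate 4490, 3973 and 4245, and RMA late 3249, 4043 and 3328. All 6 of these RMA libraries lay above Control, and Control 3 was the highest of its group. Gzmb rose in RMA intermediate by 1.44 ± 0.30 on the log2 scale (SE, edgeR adjusted p = 0.00834) and in RMA late by 1.18 ± 0.30 (SE, edgeR adjusted p = 0.0293).

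The first of these Gzmb calls was lost without Control 1 (edgeR adjusted p = 0.0533). The call in RMA late was lost without Control 1 (0.143), Control 2 (0.0832), Control 4 (0.121), RMA late 1 (0.0566) or RMA late 2 (0.169), all edgeR adjusted p values. It was also lost when only the compared groups were fitted (edgeR adjusted p = 0.0756), without the libraries low in immediate early genes (0.0635) and without those with many genes far below (0.0585). The log2 fold change of Gzmb in RMA late was 0.97 to 1.22 over the alternatives that left out no single library. RMA-KR intermediate had 1922, 1832, 1563, 969 and 1136 normalized CPM of Gzmb, all below RMA intermediate, a log2 fold change of −1.51 ± 0.28 (SE, edgeR adjusted p = 0.00771). Without the libraries low in immediate early genes this was −1.17 (edgeR adjusted p = 0.0973), and with a term for them −1.05 (edgeR adjusted p = 0.132).

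Eomes and Klf2, a T-box factor of NK cell maturation and a factor that controls lymphocyte trafficking, fell in RMA late. Eomes had 388, 263, 255 and 319 normalized CPM in Control and 173, 181 and 192 in RMA late, without overlap, a log2 fold change of −0.75 ± 0.19 (SE, edgeR adjusted p = 0.0352). RMA early had 249, 368 and 326, and RMA late against RMA early gave −0.79 ± 0.20 (SE, edgeR adjusted p = 0.0377). The Eomes call against Control was lost without Control 1 (edgeR adjusted p = 0.131), Control 4 (0.0798), RMA late 1 (0.236), RMA late 2 (0.204) or RMA late 3 (0.0812), with no filter on low counts (0.136) and without the libraries low in immediate early genes (0.0771), while its log2 fold change was −0.85 to −0.63 over all alternatives. The Eomes call against RMA early was lost without any 1 of the 6 libraries compared, with an edgeR adjusted p from 0.0518 to 0.227, without the libraries with many genes far below (0.480), with no filter (0.137) and when only these groups were fitted (0.146). The log2 fold change of Eomes against RMA early was −0.92 to −0.66 over all of these.

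Klf2 had 255, 219, 187 and 157 normalized CPM in Control, 239, 166 and 192 in RMA early and 85.2, 93.9 and 97.1 in RMA late. RMA late lay well below both groups. Klf2 fell there by 1.15 on the log2 scale against Control (SE 0.26, edgeR adjusted p = 0.0126) and by 1.11 against RMA early (SE 0.27, edgeR adjusted p = 0.0265). Against Control the Klf2 call was lost without Control 1 (edgeR adjusted p = 0.0527), RMA late 1 (0.105) or RMA late 2 (0.0935). Against RMA early the Klf2 call was lost without RMA early 1 (edgeR adjusted p = 0.154), RMA late 1 (0.153), RMA late 2 (0.126) or RMA late 3 (0.0511), without the libraries with many genes far below (0.554) and when only these groups were fitted (0.114), with log2 fold changes of Klf2 from −1.23 to −0.95 over all alternatives. RMA-KR late had 103, 104 and 99.8 normalized CPM of Klf2, all below Control, with a log2 fold change of −0.997 (SE 0.25, edgeR adjusted p = 0.0532, DESeq2 adjusted p = 0.0115). Against RMA-KR early, at 246, 190 and 197, RMA-KR late gave −1.04 (SE 0.27, edgeR adjusted p = 0.0890, DESeq2 adjusted p = 0.0113) for Klf2.

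Cd226, which encodes the activating receptor DNAM-1, had 85.2, 113, 64.2 and 115 normalized CPM in Control and 25.3, 55.2 and 14.3 in RMA-KR late. The groups did not overlap, and RMA-KR late 3 was the lowest library. Cd226 fell by 1.58 on the log2 scale (SE 0.39, edgeR adjusted p = 0.0445). The Cd226 call was lost without Control 1 (edgeR adjusted p = 0.0750), Control 2 (0.117), Control 4 (0.121), RMA-KR late 1 (0.196) or RMA-KR late 3 (0.221). It was also lost without the libraries low in immediate early genes (edgeR adjusted p = 0.131), with a term for them (0.0666), without the libraries with many genes far below (0.181) and when only these groups were fitted (0.140). Over the alternatives that left out no single library, its log2 fold change was −1.60 to −1.18.

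**Figure D5:**
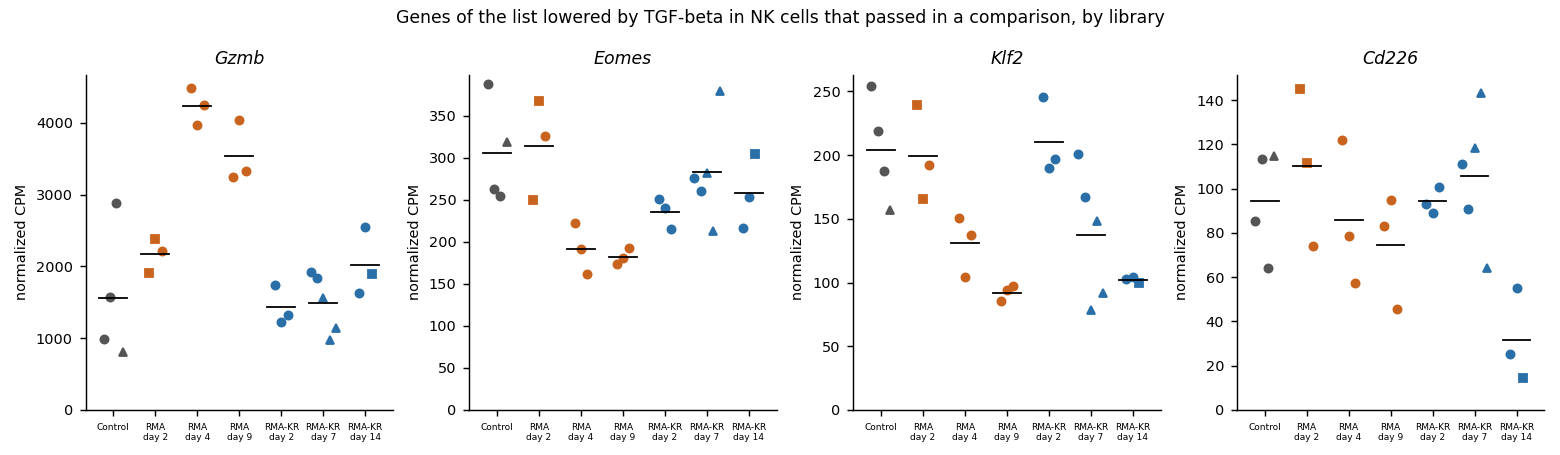
Normalized CPM of Gzmb, Eomes, Klf2 and Cd226 in every library, by group and day, with Control in grey, RMA in orange and RMA-KR in blue and a black bar at the group mean. Triangles mark libraries low in immediate early genes, squares libraries with many genes far below their median, and circles the others. Gzmb lies above Control in all RMA intermediate and late libraries, and Klf2 lies below Control in all RMA late libraries.

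Markers of NK cells had the highest sum of the lists given here in every library. The 10 NK markers, all tested, summed to 21780 to 41930 normalized CPM, with Gzma the most abundant at 9982. Their 4 lowest sums, 25280, 23630, 23130 and 21780, were those of Control 4 and RMA-KR intermediate 3, 4 and 5, just below the next library at 25390, and these libraries had 4445 to 6066 normalized CPM of Gzma. Of these markers Gzmb and Eomes, which also stand in the list of lowered genes, passed by edgeR, in 5 of 110 pairs (4.55%, beside 0.962% over all genes). At an unadjusted p under 0.05 there were 29 pairs (26.4%, beside 11.98%), and DESeq2 passed 6 (5.5%, beside 3.11%). Ighm, the immunoglobulin heavy chain gene of B cells, averaged 336. T cell markers (6 of 8 tested) summed to 12.1 to 64.2, with Cd3g the most abundant at 10.3, and their sums were 47.1, 54.8, 64.2 and 63.2 in Control 4 and RMA-KR intermediate 3, 4 and 5, and 12.1 to 52.8 in the other 20 libraries. ILC1 markers (4 of 4 tested), led by Il7r at 21.8, summed to 130.1, 125.5, 208 and 132 in these libraries, and to 8.25 to 65.3 in the other 20. The part of other cells in the level of any member was not tested.

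Markers of macrophages and monocytes (4 of 7 tested) summed to 804 to 1931 normalized CPM, led by Ccr2 at 1215. That sum is nearly all Ccr2, and the other tested markers averaged 22.3 (Cd68), 3.48 (Lyz2) and 1.18 (Csf1r), while Adgre1, C1qa and C1qb were too low to test. DESeq2 passed Cd68 in RMA-KR late against Control (adjusted p = 0.0478), where edgeR gave an adjusted p of 0.179. Ccr2 rose in RMA-KR late against Control by 0.69 on the log2 scale (edgeR adjusted p = 0.0277), from 1162, 1083, 946 and 1035 to 1702, 1531 and 1895, and in RMA late against RMA early by 0.71 (edgeR adjusted p = 0.0285). The first Ccr2 call was lost without Control 2 (edgeR adjusted p = 0.0798), Control 3 (0.106), Control 4 (0.0913), RMA-KR late 1 (0.101) or RMA-KR late 3 (0.0952), and with the replicate number as a block (0.1006). The second Ccr2 call was lost without RMA early 1 (edgeR adjusted p = 0.143), RMA early 2 (0.122), RMA late 1 (0.131) or RMA late 2 (0.0976). Fitting only the compared groups gave Ccr2 an edgeR adjusted p of 0.0617 and 0.147, leaving out the libraries low in immediate early genes 0.0770 and 0.0596, and leaving out those with many genes far below 0.0983 and 0.705, the last with a log2 fold change of 0.46. Granulocyte markers (0 of 6 tested) summed to at most 12.4, red blood cell markers (1 of 6 tested, Alas2 at 0.546) to at most 3.70, and platelet markers (5 of 5 tested, Itga2b highest at 3.63) to 0.360 to 30.4. No marker of the lists given here had a total of 0 counts over the 24 libraries. For the T cell, red blood cell, platelet and ILC1 lists, edgeR passed 0 genes in the 11 comparisons, with 3 of 66, 0 of 11, 7 of 55 and 4 of 44 pairs at an unadjusted p under 0.05, and DESeq2 passed 1, 0, 0 and 0. Those shares were 4.55%, 0%, 12.7% and 9.09%, beside 11.98% over all genes, and 1.52%, 0%, 0% and 0% for DESeq2, beside 3.11%. For the macrophage and monocyte list, edgeR passed 2 of 44 pairs, those of Ccr2 (4.55%, beside 0.962% over all genes). There, 9 pairs had an unadjusted p under 0.05 (20.45%) and DESeq2 passed 3 (6.82%).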

How the data were processed

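The authors made polyA libraries, trimmed reads with cutadapt 1.10, removed ribosomal reads with Bowtie2 2.2.8, aligned the rest to mm10 with STAR 2.5.3a and counted reads per gene with HTSeq 0.6.1p1. The deposited values used here are raw counts per gene in 24 columns. Another 48 columns of per-library values were not used, nor were the columns of the authors' comparisons, which hold log2 fold changes, p-values and adjusted p-values.

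Counts were filtered with filterByExpr, scaled with TMM and fitted with 1 mean per group in edgeR 4.0.16 (quasi-likelihood, robust, R 4.3.3, limma 3.58.1), with Benjamini-Hochberg adjustment over all 17097 genes and a threshold of 0.05. Standard errors are the absolute log2 fold change over the root of F, and 95% intervals use them with the fit's degrees of freedom. Correlations used log2 CPM with a prior count of 2. The procedure was tested on simulated data. Alternatives were DESeq2 1.42.0, its size factors in edgeR, other filters, a replicate block, only the groups compared and each library left out. Genes named are the members, passing or most abundant list genes, the 3 genes most like Tgfb1, Tgfbr1, Tgfbr2 and Smad7, and the most abundant markers, with some list genes and markers of few counts named to show their levels. Itga1, Tnfsf10, Cxcr6, Tgif1, Pmepa1, Ldlrad4 and Smurf1 are named because lists share them, and not every list gene that passed with DESeq2 alone is named. Members and lists were chosen with earlier results of these data known. Some of the markers checked are not reported here.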

Additional observations from a re-analysis of the deposited data

Results flagged for a closer look

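Tgfbr1 in Control 4, at 50.4 normalized CPM, lay far from the other Control libraries at 32.5, 34.3 and 33.4, with a gap of 0.899 of the group's whole range. It was the 1 such value among 18 sets checked, each a member in the Control or RMA-KR intermediate group, and chance gives about 1 in 20 such values. Control 4 was also low in Fos, Jun, Junb and Dusp1, and the part of that difference in the Tgfbr1 level was not tested.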

How the results depend on the processing

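Over the other filters, scalings, tools and designs, 1 to 4 of the 99 member and comparison pairs changed sign, and 0 of 88 with at least 10 counts in every library, none of them above 0.09 in absolute log2 fold change. Of the alternatives chosen after seeing the data, leaving out the libraries low in immediate early genes turned 10, a term for them 9 and leaving out the libraries with many genes far below 17. In RMA late against Control the number of members that passed was 1 with DESeq2 default settings, 1 with betaPrior=TRUE and 1 with at least 10 counts in every library, and 0 to 1 with each library left out. In RMA late against RMA early it was 1 with DESeq2 default settings and 1 with betaPrior=TRUE, and 0 with each library left out. In the other 9 comparisons it was 0 under each alternative run. Over all genes in RMA late against Control, DESeq2 default settings passed 683 upward and 371 downward, and betaPrior=TRUE 666 and 324. At least 10 counts in every library gave 431 and 213 there. In RMA late against RMA early, DESeq2 passed 757 genes upward and 605 downward by default, and 660 and 557 with betaPrior=TRUE. The cause of the differences between settings was not tested.

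Over the alternatives other than single libraries left out, the number of all genes that passed ran from 0 to 91 (RMA early, 0 in the report's fit), 265 to 1246 (RMA intermediate, 401), 289 to 1054 (RMA late, 455), 0 to 212 (RMA-KR early, 17), 0 to 79 (RMA-KR intermediate, 3) and 103 to 663 (RMA-KR late, 208) against Control. It ran from 0 to 437 (early, 58), 47 to 444 (intermediate, 110) and 0 to 67 (late, 0) for RMA-KR against RMA, and from 1 to 1362 (491) and 2 to 609 (67) for late against early with RMA and RMA-KR. With single libraries left out it ran from 0 to 88, 191 to 277, 143 to 581, 0 to 13, 0 to 4, 82 to 181, 8 to 198, 40 to 81, 0 to 2, 92 to 653 and 14 to 57 in the same order.

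With the replicate number as a replicate block, 0 members passed in each comparison. Libraries with the same number in different groups did not deviate together (correlations −0.118 to 0.202 over 64 pairs). For 8 of 23 libraries the mean correlation was higher with libraries of the same number than with those of other numbers. These values gave no sign of pairing by number, though they cannot show that the libraries are unpaired. Groups of 3 to 5 libraries leave wide intervals, with a largest SE of 0.762 for Tgfbr1, 0.748 for Smad7, 0.721 for Smad4, 0.704 for Tgfb1 and 0.634 for Ski, and a difference inside them was not detectable here.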
